A study of Homo sapiens with 24 samples.

Results

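Binding of the Flag-tagged cytokine subunits S100A8 and S100A9 was examined at 10 genes of the EGF receptor system: the receptors EGFR, ERBB2, and ERBB3, and the ligands AREG, EREG, HBEGF, TGFA, BTC, EPGN, and NRG1. They were taken by name from the 20098 protein-coding genes of the GENCODE annotation on chromosomes 1 to 22 and X, and all 10 were found. The locus of a gene is its annotated body with 50 kb on either side. A peak was counted in a locus if its summit lay there and its q value was at most 1e-07, that is, a −log10 q of at least 7. Of 30322 confident sites in the genome, 48 lay in these loci, where a confident site is a merged region with a peak in at least 2 replicates of a condition.

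The cells were MCF-10A–ER-Src, a nontransformed human mammary epithelial line with a Src kinase fused to the estrogen receptor ligand-binding domain, so that 4-hydroxytamoxifen (TAM) induces transformation. They stably expressed S100A8-Flag or S100A9-Flag from a retroviral vector, with a single Flag tag at the C-terminal end, in addition to the endogenous proteins. Cells were given 1 μM TAM or the vehicle ethanol (EtOH) for 24 hours, and Flag ChIP followed a double fixation, by protein-protein cross-linkers before formaldehyde. The 11 peak lists are biological replicates: 2 for S100A8 in EtOH and 3 for S100A8 in TAM, with 3 for S100A9 under either treatment. Gene expression, Pol II, and ChIP from cells with untagged protein were not analyzed here, so that binding near a gene says nothing about its RNA.

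Between 1853 and 4609 peaks passed the threshold in each EtOH library (median 4327), and between 21518 and 40735 in each TAM library (median 24806). Read numbers are not part of these lists, so that shallow sequencing and weak binding cannot be told apart where peaks are few. The number of peaks near a gene is therefore given beside its share, which is the number of peaks in the locus per 10000 peaks of the same library.

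EGFR, ERBB2, and ERBB3 are receptor tyrosine kinases at the cell surface. EGFR is bound by EGF, TGFA, AREG, EREG, HBEGF, BTC, and EPGN, and ERBB3 by NRG1, whereas ERBB2 has no known ligand of its own and signals as the partner of another receptor. The ligands are made as membrane-anchored precursors that proteases of the ADAM family shed, and the activated receptors feed the RAS–MAP kinase and PI3-kinase pathways that drive growth of mammary epithelial cells. S100A8 and S100A9 lack a known DNA binding domain, and a Flag peak after protein-protein cross-linking may reflect contact with DNA through other proteins.

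DNA around the summits shows which motifs lay at the sites that the results below turn on. Each sequence runs 50 bases to either side of the summit, on the hg19 (GRCh37) plus strand. Capitals mark a match to AP-1 (TGANTCA), CEBP (TTNCNNAA), or STAT3 (TTCNNNGAA), on either strand, and a sequence without capitals had no match to these or to the ETS (CGGAAG), KLF/SP1 (CCCCGCCC), and CREB (TGACGTCA) motifs. The EGFR intron 20 site (chr7:55254053-55254153) was the one EGFR site called in all 6 TAM libraries. The site at an internal start of EGFR (chr7:55177218-55177318) held the promoter calls of that gene. HBEGF is represented by its promoter site (chr5:139726321-139726421), called in the most libraries of all 48 sites, and by the site in intron 2 (chr5:139724436-139724536). For the chromosome 4 ligands, the EREG intron 1 site (chr4:75240401-75240501), the site between EREG and AREG (chr4:75274530-75274630), and the BTC promoter site (chr4:75719863-75719963) are given.
EGFR intron 20, AP-1: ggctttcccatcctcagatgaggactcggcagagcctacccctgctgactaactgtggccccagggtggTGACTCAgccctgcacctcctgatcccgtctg
EGFR internal start, AP-1: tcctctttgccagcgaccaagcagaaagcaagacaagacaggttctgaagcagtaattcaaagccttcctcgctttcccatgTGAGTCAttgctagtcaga
HBEGF promoter, no motif: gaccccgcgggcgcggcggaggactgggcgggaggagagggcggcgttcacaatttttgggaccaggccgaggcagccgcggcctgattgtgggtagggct
HBEGF intron 2, AP-1: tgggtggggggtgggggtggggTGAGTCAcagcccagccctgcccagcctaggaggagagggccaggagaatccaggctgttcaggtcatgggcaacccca
EREG intron 1, CEBP then AP-1: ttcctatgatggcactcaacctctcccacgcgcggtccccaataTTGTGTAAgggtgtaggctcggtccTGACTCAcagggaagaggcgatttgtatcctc
Between EREG and AREG, a pair of STAT3 matches: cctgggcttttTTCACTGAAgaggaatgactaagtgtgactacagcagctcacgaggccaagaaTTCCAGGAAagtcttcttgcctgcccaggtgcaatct
BTC promoter, no motif: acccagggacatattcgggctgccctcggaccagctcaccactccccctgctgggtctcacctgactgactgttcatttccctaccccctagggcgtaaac

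To ask whether TAM changed binding near these genes, the peaks in each locus were counted in every library, and an exact permutation test shuffled the treatment labels of the libraries for each protein separately. All 10 loci had a peak in at least 1 library, as did 93.4% of all genes. All 3 receptors and the ligands EREG, HBEGF, TGFA, and NRG1, 7 of the 10 members, had more peaks in TAM (adjusted p at most 0.05 by the two-sided exact test, Benjamini-Hochberg over 18764 genes). Among all genes tested, 65.3% were called higher in TAM. The same 7 members had an unadjusted p under 0.05, as did 69.9% of all genes. The median difference was 4.29 peaks over the 10 members and 2.33 over all genes tested, with a median locus of 135 kb for the members and 129 kb for all. Every TAM library had more peaks than every EtOH library at 4 members, EGFR, ERBB2, ERBB3, and HBEGF, and this held for 38.8% of all genes tested. With the 1853 top peaks of each library in place of a threshold, 0 members were called. The differences at EGFR, ERBB3, EREG, HBEGF, and TGFA were then below 0, each by 0.5 peaks or less. Lists of equal length take away the rise in total peaks, so a gain shared by the whole library cannot show there. No member was called with gene bodies alone or with each peak given to the nearest TSS. The same held without either S100A8 EtOH library, when the smallest possible p is 0.025. By each of these exact permutation tests 0% of all genes were called as well. An unadjusted p under 0.05 was found for 0 members and 1.16% of all genes with the top peaks, for 3 members and 28.5% with bodies, and for 4 members and 38.4% with the nearest TSS. Without S100A8 EtOH replicate 1 or 2 it was found for 6 members, and for 48.6% or 49.3% of all genes.

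**Figure D1:**
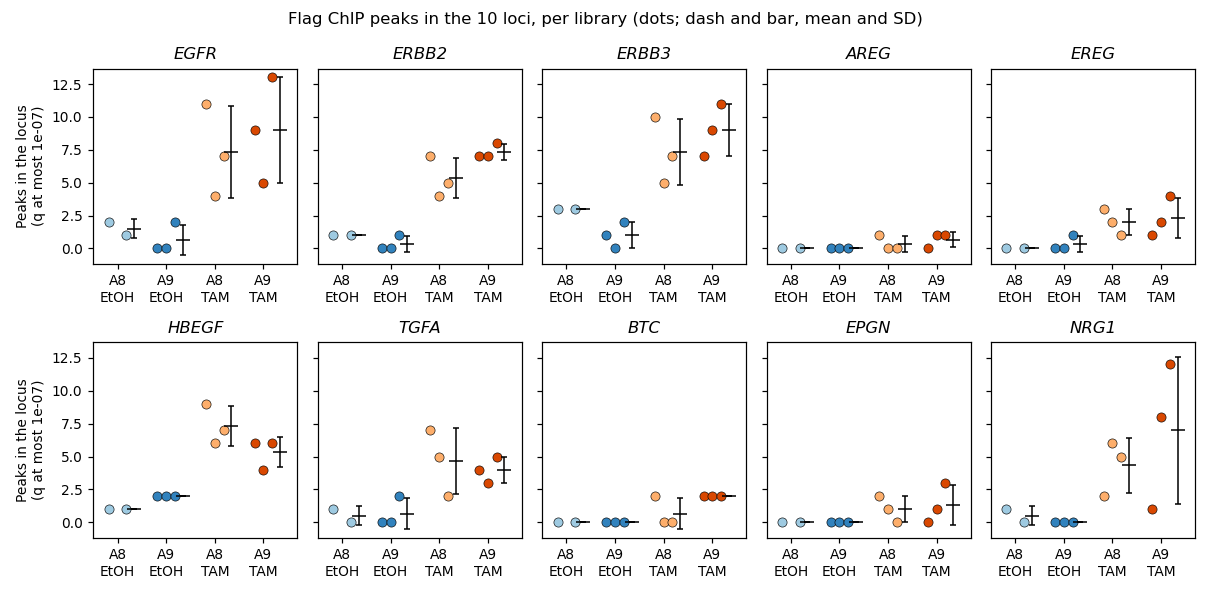
Peaks with q at most 1e-07 in each of the 10 loci (y axis, number of peaks) in the 11 libraries, by protein (A8, S100A8-Flag; A9, S100A9-Flag) and treatment. Dots are libraries, and the dash and bar give mean and SD. The EGFR, ERBB2, ERBB3, and HBEGF loci had at least 4 peaks in each TAM library and at most 3 in each EtOH library.

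EGFR (chr7:55086710-55279321, plus strand) encodes the receptor for most of these ligands. Its locus held 2 and 1 peaks in the S100A8 EtOH libraries and 0, 0, and 2 in the S100A9 EtOH libraries. In TAM it held 11, 4, and 7 peaks for S100A8 and 9, 5, and 13 for S100A9, so that the treatments did not overlap. The difference between treatments, averaged over the proteins, was 7.08 peaks (exact permutation p = 0.01, the smallest possible here; adjusted p = 0.0226).

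Of the 9 confident sites in the EGFR locus, 7 lay in the gene body and 8 were distal, away from the promoters of protein-coding genes. The intron 20 site, 167393 bp from the canonical start, was called in all 6 TAM libraries and in no EtOH library. Its fold enrichment over input ranked at percentiles 90.2, 59.6, and 93.8 of the S100A8 TAM libraries and 21.9, 57.5, and 37.0 of the S100A9 TAM libraries. Thus it was a strong site in some libraries and an ordinary one in others. Its summit also lay 2567 bp past the start of the antisense lncRNA gene EGFR-AS1. A site in intron 1, 55069 bp from the start, was called in 5 TAM libraries and had the highest mean percentile by fold enrichment in the locus (69.7). Ranked by q value, the intron 20 site was the higher of these (75.5 against 68.6). The site 1658 bp past the start was called in both S100A8 EtOH libraries, in 1 S100A8 TAM library and in 2 S100A9 TAM libraries. It was the only EGFR site shared by both S100A8 EtOH libraries, with a CEBP motif within 50 bp of its summit. A pair of sites beyond the 3′ end of EGFR, 235966 and 236662 bp from its start, lay 652 and −44 bp from a start of the lncRNA gene ELDR. They were called in 5 and 4 TAM libraries.

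The promoter of a gene runs from 1500 bp upstream to 250 bp downstream of any of its annotated transcription start sites (TSSs). Promoter peaks of EGFR were called in 1 EtOH library (S100A9 replicate 3) and in 5 TAM libraries. All of them lay at the internal TSS at 55177416 within intron 1, between 122 and 240 bp upstream of it. The 5′ end of EGFR had no call in any library. Peaks below the threshold lay there in S100A8 EtOH replicate 1 (−log10 q = 2.03), S100A8 TAM replicate 3 (6.81), and S100A9 TAM replicate 2 (5.74).

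ERBB2 (chr17:37844167-37886679, plus strand), the coreceptor of the family, had 1 and 1 peaks in its locus in the S100A8 EtOH libraries and 0, 0, and 1 in the S100A9 EtOH libraries. The TAM libraries had 7, 4, and 5 peaks for S100A8 and 7, 7, and 8 for S100A9, without overlap between treatments. The difference was 5.67 peaks (exact permutation p = 0.01, adjusted p = 0.0226). Most of these peaks were not at ERBB2 itself. Of 9 confident sites, 1 lay in the ERBB2 body and at its promoter, and 4 were promoter sites of the downstream neighbors MIEN1 and GRB7, which encodes an SH2 adaptor. When each peak was given only to the gene with the nearest TSS, the difference at ERBB2 was 0.33 peaks (exact permutation p = 0.6).

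The ERBB2 promoter site, 152 bp upstream of the canonical start, was called in 2 S100A9 TAM libraries, at percentiles 74.6 and 48.5, and in no S100A8 library. A second group of upstream TSSs at the 5′ end of the gene had calls in S100A8 TAM replicate 1 and S100A9 TAM replicate 2. At either place, 3 of the 6 TAM libraries and no EtOH library called a promoter peak. Weaker promoter peaks, at any q value listed, were found in 5 TAM and 2 EtOH libraries in all. The MIEN1 promoter site was called in 1 EtOH and all 6 TAM libraries, and held an ETS and a KLF/SP1 motif. A distal site 54288 bp from the ERBB2 start, between GRB7 and IKZF3, was called in all 6 TAM libraries and in no EtOH library. Its percentiles were 34.4, 83.8, and 98.5 for S100A8 and 92.7, 93.2, and 60.9 for S100A9, the highest mean among the ERBB2 locus sites called in all 6.

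ERBB3 (chr12:56470583-56497289, plus strand), the neuregulin receptor with a weak kinase domain, had the most peaks of the 10 loci, 58 in all. There were 3 and 3 peaks in the S100A8 EtOH libraries and 1, 0, and 2 in the S100A9 EtOH libraries. TAM libraries held 10, 5, and 7 for S100A8 and 7, 9, and 11 for S100A9, above every EtOH library. The difference was 6.17 peaks (exact permutation p = 0.01, adjusted p = 0.0226). As at ERBB2, neighbors took a large part: 6 of its 9 confident sites were promoter sites of RPS26, PA2G4, RPL41, ZC3H10, ESYT1, or MYL6B. An ESYT1 promoter site, 48117 bp from the canonical ERBB3 start, was the only site of the locus called in all 6 TAM libraries. No EtOH library called it, and its mean TAM percentile was 41.6. By the nearest TSS alone, the ERBB3 difference was 1.00 peak (exact permutation p = 0.24).

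Both confident sites in the ERBB3 body were at its own promoter, 1085 and 129 bp upstream of the canonical start. The upstream one was called in 1 S100A8 and 1 S100A9 EtOH library and in 2 TAM libraries of each protein. Its fold enrichment was 14.8 and 14.7 in S100A8 TAM replicates 1 and 2, at percentiles 97.7 and 97.5, against percentiles 71.4 and 51.6 in S100A9 TAM replicates 2 and 3. Of all 48 sites it had the highest mean percentile by fold enrichment over the TAM libraries that called it (79.6). Ranked by q value it came after the PA2G4 promoter site in the same locus (83.1 against 84.2). The site closer to the start was called in 2 EtOH libraries, all 3 S100A8 TAM libraries, and 2 S100A9 TAM libraries. Among the 8 members with any promoter call, ERBB3 had the smallest difference between treatments: 3 of 5 EtOH libraries and 5 of 6 TAM libraries had a promoter peak, with S100A9 TAM replicate 1 the one TAM library without. Counting weaker peaks, all 11 libraries had one.

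HBEGF (chr5:139712428-139726188, minus strand), heparin-binding EGF-like growth factor, was the only member with a peak in every library. Its locus held 1 and 1 peaks in the S100A8 EtOH libraries, 2, 2, and 2 in the S100A9 EtOH libraries, 9, 6, and 7 in S100A8 TAM, and 6, 4, and 6 in S100A9 TAM. Every TAM library was above every EtOH library, by 4.83 peaks on average (exact permutation p = 0.01, adjusted p = 0.0226). The promoter site, 183 bp upstream of the start, was called in 3 EtOH and 6 TAM libraries, more than any other of the 48 sites. In EtOH it ranked at percentile 43.4 in S100A8 replicate 1, 92.2 in S100A9 replicate 2, and 74.7 in S100A9 replicate 3. In TAM it ranked at 98.6, 2.92, and 47.3 for S100A8 and at 32.6, 45.4, and 79.9 for S100A9. Its rank by fold enrichment therefore varied over nearly the whole range among replicates of S100A8 in TAM. The call itself was shared by all 6 TAM libraries. Its mean TAM percentile was 51.1 by fold enrichment and 72.5 by q value. By summits within the promoter, 2 EtOH and 6 TAM libraries were called.

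The HBEGF locus had 8 confident sites in all. A site in intron 2, 1702 bp from the start, carried AP-1 and was called in 2 TAM libraries of each protein and in no EtOH library. Upstream of the gene, a site at −16780 bp within SLC4A9 was called in 2 EtOH and all 6 TAM libraries, and a site at −11213 bp lay 22 bp before the start of an unnamed lncRNA gene. The latter was called in 1 EtOH and 5 TAM libraries.

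TGFA (chr2:70674416-70781325, minus strand), transforming growth factor alpha, had 1 and 0 peaks in the S100A8 EtOH libraries and 0, 0, and 2 in the S100A9 EtOH libraries. In TAM it had 7, 5, and 2 peaks for S100A8 and 4, 3, and 5 for S100A9. S100A8 TAM replicate 3 and S100A9 EtOH replicate 3 had the same number. The difference was 3.75 peaks (exact permutation p = 0.01, adjusted p = 0.0226). A promoter peak was called in all 6 TAM libraries and in 2 EtOH libraries, S100A8 replicate 1 and S100A9 replicate 3. The promoter site was the widest of the 48, at 1531 bp, over several TSSs, and ranked at percentiles 62.5 and 69.1 in these EtOH libraries and between 25.6 and 81.3 in TAM. A distal site 42614 bp upstream of the canonical start, with an AP-1 motif, was called in 4 TAM libraries and in no EtOH library.

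NRG1, neuregulin 1, lies on chromosome 8 with a body of 1216 kb, by far the longest of the 10. Its locus held 1 and 0 peaks in S100A8 EtOH and none in the S100A9 EtOH libraries. TAM libraries held 2, 6, and 5 peaks for S100A8 and 1, 8, and 12 for S100A9, so that S100A9 TAM replicate 1 was no higher than S100A8 EtOH replicate 1. The difference was 5.42 peaks (exact permutation p = 0.01, adjusted p = 0.0226). None of its 5 confident sites was a promoter site and none was called in all 6 TAM libraries. The one with the highest mean percentile (66.0), in intron 5, held AP-1 and CEBP motifs and was called in 1 S100A8 and 2 S100A9 TAM libraries. At its promoters, S100A8 TAM replicate 2 and S100A9 TAM replicate 3 were called, while peaks of any q value were found in 4 EtOH and 6 TAM libraries.

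AREG, EREG, and EPGN lie side by side on chromosome 4, and BTC lies farther along it. With 50 kb on either side, the EREG locus overlaps those of AREG and EPGN, and 7 peaks were counted in a second locus. All 7 are among the 14 peaks of the EREG locus. EREG (chr4:75230862-75254466, plus strand), epiregulin, had no peak in 4 EtOH libraries and 1 in S100A9 EtOH replicate 3. It had 3, 2, and 1 peaks in S100A8 TAM and 1, 2, and 4 in S100A9 TAM. The difference was 2.00 peaks (exact permutation p = 0.02, adjusted p = 0.0365). This call was lost in 9 of the 11 tests with 1 library left out (adjusted p = 0.0543 to 0.0786 by the exact permutation test), and held without S100A9 EtOH replicate 3 and without S100A9 TAM replicate 1. The intron 1 site, 9589 bp from the start, was called in all 6 TAM libraries and in that one EtOH library. By fold enrichment it ranked at percentile 91.6 there. In TAM it ranked at 41.0, 60.3, and 58.9 for S100A8 and at 0.963, 84.5, and 68.0 for S100A9. The value of 0.963 is among the lowest fold enrichments of its library. Its mean TAM percentile was 52.3 by fold enrichment and 69.1 by q value. EREG promoter peaks passed the threshold only in S100A8 TAM replicate 2 and S100A9 TAM replicate 3 of the 11 libraries. Counting weaker peaks, 5 TAM libraries and no EtOH library had one.

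BTC (chr4:75669969-75719733, minus strand), betacellulin, had no peak in any EtOH library. It had 2, 0, and 0 peaks in S100A8 TAM and 2, 2, and 2 in S100A9 TAM. The difference of 1.33 peaks did not pass (exact permutation p = 0.06, adjusted p = 0.0805). Its only confident site was the promoter site, 180 bp upstream of the start, called in S100A8 TAM replicate 1 and all 3 S100A9 TAM libraries, with fold enrichments of 8.89, 6.48, 7.20, and 8.99. Whether both proteins differed at this promoter in TAM was not tested on its own. Below the threshold, a promoter peak was also listed for S100A8 TAM replicate 2 and S100A9 EtOH replicate 1.

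EPGN (chr4:75174187-75182506, plus strand), epigen, had no peak in EtOH, 2, 1, and 0 peaks in S100A8 TAM, and 0, 1, and 3 in S100A9 TAM (difference 1.17, exact permutation p = 0.12, adjusted p = 0.144). Its confident site lay 24660 bp upstream of it, within MTHFD2L. No EPGN promoter peak passed the threshold in any library.

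AREG (chr4:75310853-75320722, plus strand), amphiregulin, had the fewest peaks: 1, 0, and 0 in S100A8 TAM, 0, 1, and 1 in S100A9 TAM, and none in EtOH (difference 0.5, exact permutation p = 0.24, adjusted p = 0.271). These 3 peaks formed the site between EREG and AREG, 36273 bp upstream of AREG and 26440 bp past the nearest EREG start. No peak of any q value lay in the AREG promoter or body in any of the 11 libraries. The authors kept uniquely mapped reads, and in hg19 AREG has a near copy, AREGB, at chr4:75480629-75490486. Of the 32-base words of the AREG promoter, 96.5% recurred elsewhere in the genome and 95.5% were found in the AREGB locus. In its body, 96.0% recurred. AREGB had no peak either. The promoters of the other 9 members had between 0 and 12.2% recurring words, with ERBB2 the highest. An absence of binding at AREG can therefore not be told apart from an absence of reads that could be placed.

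**Figure D2:**
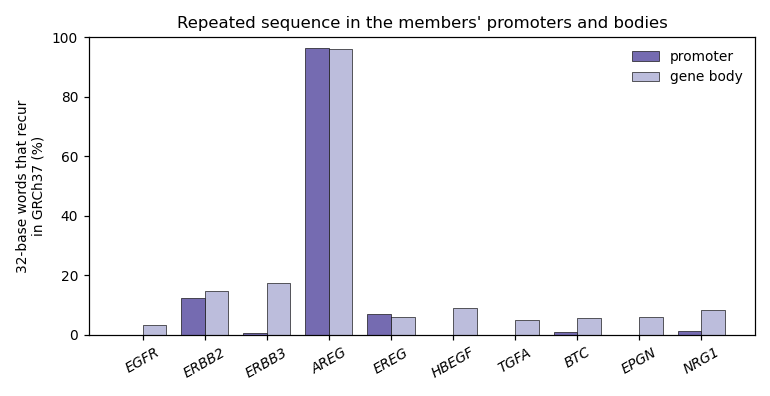
Percent of 32-base words (y axis) in the promoter (dark bars) and body (light bars) of each member that occur more than once in hg19. AREG stands at 96.5% and 96.0%, and the highest value of another member is 17.3%, in the ERBB3 body.

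To ask whether these loci gained more than their libraries as a whole, the share of each library's peaks was compared. The 10 loci together held 30 peaks in the 5 EtOH libraries and 258 in the 6 TAM libraries, each peak counted once. Per 10000 peaks, the EtOH libraries had 14.9 ± 6.03 (SD, n = 5) and the TAM libraries 15.6 ± 1.64 (SD, n = 6). The EtOH libraries ranged from 8.34 to 21.8 and enclosed all TAM libraries, which ranged from 13.3 to 17.7. None of the 10 members was called by share in either direction, and none had an unadjusted p under 0.05 (exact permutation test). Among all 18764 genes 0.0% were called, and 21.2% had an unadjusted p under 0.05. With this design, genes can be called only if at least 3753 are called together. That number is enough only if each has the smallest p of 0.01.

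The shares of single members moved in both directions. NRG1 had the lowest p, with 1.45 more peaks per 10000 in TAM (exact permutation p = 0.05, adjusted p = 0.228). HBEGF had a lower share in TAM (difference −2.19, p = 0.11, adjusted p = 0.367 by the exact permutation test), and so had ERBB3 (difference −1.56, p = 0.12, adjusted p = 0.367 by the same exact test). The other 7 members had positive differences between 0.167 for AREG and 0.849 for ERBB2. A difference that misses the threshold in this design does not show that the shares were alike.

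**Figure D3:**
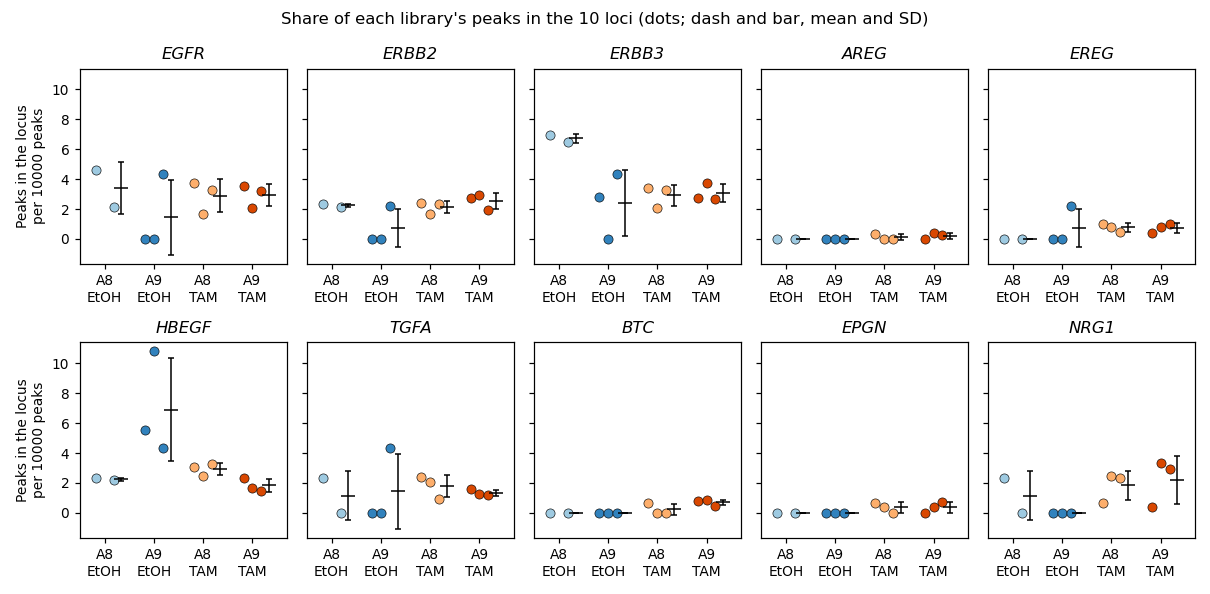
Peaks in each locus per 10000 peaks of the library (y axis) in the 11 libraries, by protein (A8, S100A8-Flag; A9, S100A9-Flag) and treatment. Dots are libraries, and the dash and bar give mean and SD. By the SD over all libraries of a treatment, EtOH shares spread more widely than TAM shares at EGFR, ERBB2, ERBB3, EREG, HBEGF, and TGFA. Each EtOH value rests on 3 peaks or fewer.

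S100A8 and S100A9 were compared in the same way, within each treatment. No member was called for a difference in share between the proteins (exact permutation test, smallest adjusted p = 1). None had an unadjusted p under 0.05, where 2.31% of all genes did and 0.0% were called. Here too, a missed call does not show that the shares were alike. The largest differences were at ERBB3, where S100A9 had the lower share (difference −2.09, exact permutation p = 0.12), and at HBEGF, with 1.78 more (exact permutation p = 0.25). Of the 48 sites, 6 were called in S100A9 TAM libraries and in no S100A8 TAM library, and 0 were called in S100A8 TAM libraries and in no S100A9 TAM library. These are 12.5% and 0% of the 48, against 16.6% and 5.76% of all 30322 sites. The 6 sites comprised 3 sites in the ERBB2 locus and 1 each at ERBB3, TGFA, and NRG1. S100A9 TAM replicate 3 had the most peaks of all libraries (40735), and its part in this was not tested.

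The effect of TAM was also compared between the proteins. Protein labels were shuffled within each treatment for this, so that the p values refer to no difference between the proteins under either treatment. A difference between the proteins that TAM leaves unchanged would break that assumption too. No member was called (exact permutation test of the difference, 0.0% of all genes called), and 1 member, HBEGF, had an unadjusted p under 0.05, as did 2.09% of all genes. At HBEGF the S100A8 shares were 2.31 and 2.17 peaks per 10000 with EtOH, and 3.06, 2.49, and 3.25 with TAM. For S100A9 they were 5.56, 10.8, and 4.35 with EtOH, and 2.35, 1.67, and 1.47 with TAM. The S100A9 EtOH shares rest on 2 peaks in each library, and the value of 10.8 is from replicate 2, the library with the fewest peaks (1853). The TAM minus EtOH difference was 0.69 for S100A8 and −5.07 for S100A9 (difference −5.77, exact permutation p = 0.01, adjusted p = 1).

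Promoter calls were compared between treatments for the 8 members that had a promoter peak in at least 1 library. Across the genome, 63.4% of genes had one. AREG and EPGN had none. HBEGF and TGFA were called in all 6 TAM libraries, as were 15.4% of all genes. All 8 had a larger share of TAM than of EtOH libraries with a call, but 0 of 8 passed the exact permutation test, and none had an unadjusted p under 0.05. Among 12742 genes, 0.0% were called and 19.3% had an unadjusted p under 0.05. BTC came closest, with 0 of 5 EtOH and 4 of 6 TAM libraries (exact permutation p = 0.06, adjusted p = 0.267).

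The 48 confident sites were then described against all 30322. They were 142 to 1531 bp wide. Of them, 17 (35.4%) were promoter-proximal, 7 at promoters of members and 10 at those of neighbors only, and 34.3% of all sites were. No EtOH library called 31 of them (64.6%, all sites 68.9%), of which 16 had a weaker peak in some EtOH library. All 6 TAM libraries called 9 of them (18.8%, all sites 14.3%). Every one of the 48 was called in at least 1 TAM library and none in all 11 libraries or in more than 3 EtOH libraries. The median of the mean TAM percentile was 52.2, against 51.4 over all sites.

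**Figure D4:**
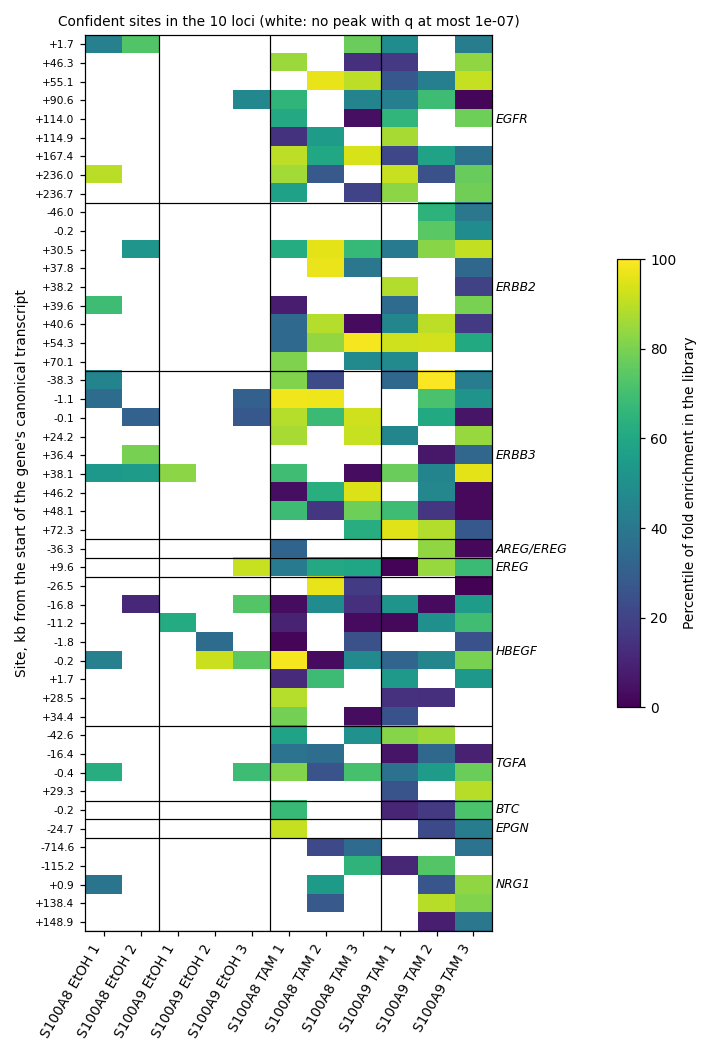
The 48 confident sites (rows, by gene and by kb from the start of the canonical transcript) in the 11 libraries (columns). Color gives the percentile of the fold enrichment of the peak within its library, and white means no peak with q at most 1e-07. The 5 EtOH columns are mostly white, with 31 sites called in none of them, and 9 sites are colored in all 6 TAM columns.

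At least 1 of the 6 motifs lay within 50 bp of the summit at 25 of the 48 sites (52.1%, all sites 47.9%). AP-1 was the most frequent, at 14 sites (29.2%, against 23.2% of all sites). It lay at 11 of the 31 distal sites (35.5%, all distal sites 31.5%) and at 3 of the 17 promoter-proximal sites (17.6%, all such sites 7.16%). CEBP was found at 5 sites (10.4%, all sites 17.0%), ETS at 5 (10.4%, all 8.12%), KLF/SP1 at 4 (8.33%, all 5.64%), STAT3 at 1 (2.08%, all 2.84%), and CREB at 0 (all 0.768%). AP-1 and CEBP matches can overlap, since the letters of one may run into the other. Within 100 bp, AP-1 lay at 38.7% of the distal sites and at 41.8% of all distal sites, and STAT3 at 8.33% of the 48 and 5.69% of all, so that both orders turned with the window. A match describes the sequence and shows no bound factor.

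The wider pathway was followed with a list of 28 other genes. In peak number, 24 of the 28 were called higher in TAM by the exact permutation test, where 65.3% of all genes were, with a median difference of 2.75 peaks. By role, these were 4 of 5 other receptors and ligands, 6 of 6 genes of ligand shedding, 6 of 7 negative regulators, and 8 of 10 adaptors and effectors. ERBB4, the remaining receptor of the family, was not called (difference 1.5, exact permutation p = 0.06, adjusted p = 0.0805), and SOCS5, SOS1, and PIK3CA were not either. Among those called by the exact permutation test were ADAM17, the main sheddase of several EGFR ligands (difference 2.17, adjusted p = 0.0226), ERRFI1, a feedback inhibitor of the EGFR kinase (difference 2.17, adjusted p = 0.0365), and CBL, the ubiquitin ligase of the receptor (difference 5.58, adjusted p = 0.0226).

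By share, 0 of the 28 genes were called by the exact permutation test, and 9 had an unadjusted p under 0.05 (21.2% of all genes). SHC1, which couples the receptors to RAS, had the largest difference, with a lower share in TAM (difference −7.34, exact permutation p = 0.01, adjusted p = 0.086). Its locus held 4 and 6 peaks in S100A8 EtOH and 6, 1, and 7 in S100A9 EtOH, and 14, 12, 10, 12, 10, and 14 in the TAM libraries. The EGF locus had no peak in EtOH and 1 or 2 in each TAM library (difference in share 0.62, exact permutation p = 0.01, adjusted p = 0.086). With that pattern the p is the smallest possible, whatever the list lengths. A single peak in the longest EtOH list is a share of 2.17, above the mean TAM share of 0.62. EtOH lists could thus lack an EGF peak at an unchanged share, and the test cannot tell a rise in share from short lists. The NRG3, ADAM17, CBLB, and GRB2 loci had the same pattern.

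For ERBB3, the member with the most peaks, the genes with the most similar peak numbers over the 11 libraries were SMIM41 (Pearson r = 0.991), INPP4A (r = 0.980), and KLF16 (r = 0.980), among 12110 genes with at least 14 peaks. Over the 6 TAM libraries alone, r was 0.988, 0.927, and 0.950. The points share the libraries and their totals, and the values are a description only.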

How the data were processed

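Flag ChIP-seq of S100A8-Flag and S100A9-Flag was analyzed from the peak lists of 11 libraries. Per the study's methods and the submitters' processing notes, the authors used Bowtie2 for alignment to hg19, retained reads that mapped uniquely, and ran MACS2 on each library with its own chromatin input as background. Replicates were not pooled, and tool versions are not given in the sources used here. In the deposited lists, the fold enrichment is a ratio over that input, the −log10 q value is the authors' MACS2 value, the score column was not used here, and the summit is a distance from the peak start. The lists reach down to q = 0.05, and read depth is unknown.

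Peaks with q at most 1e-07 on chromosomes 1 to 22 and X were used. All chromosome names matched GRCh37, and no peak ended beyond a chromosome. Genes and TSSs were the protein-coding ones of GENCODE 44 lifted to GRCh37. Overlapping peaks (1 bp) of the replicates were joined within each condition, regions found in 2 or more replicates were kept, and these were joined across the 4 conditions. The study's minimum of raw reads per peak was not applied. Percentiles rank the fold enrichment within a library. For each gene, the libraries were permuted exactly (200 arrangements, two-sided by doubling the smaller tail), treatment within protein or protein within treatment. P values were adjusted by the Benjamini-Hochberg method over all genes tested. The test was checked on simulated counts. Labels call the libraries biological replicates. Sequences of the other sites are not reported here.

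Replicate numbers were not treated as pairs. The deviations of same-numbered EtOH and TAM libraries had correlations between −0.0445 and 0.0411 over 5 pairs. EtOH shares rest on few peaks per locus, so that these low values cannot exclude pairing. The alternatives were other thresholds, an equal number of top peaks, other locus and promoter definitions, other rules for sites, each library left out, and the replicate block. The 10 members and all lists were chosen with earlier results of these data known. All members were described, with sites at their promoters and the highest-ranked site of each by number of TAM libraries and then percentile. Other sites named in the text were chosen after their values were seen. Python 3.11.15, NumPy 2.4.6, pandas 2.3.3, and pysam 0.24.0 were used.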

Additional observations from a re-analysis of the deposited data

Results flagged for a closer look

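In a set of 5 EtOH libraries, 1 library stood apart from the others at 2 members, by the gap to the nearest library relative to the range. The EREG locus held 1 peak in S100A9 EtOH replicate 3 and 0 in each of the other 4, and the NRG1 locus held 1 peak in S100A8 EtOH replicate 1 and 0 in each of the other 4. For continuous values chance alone would mark about 1 in 20 such sets, and 17 sets were examined. With counts of 0 and 1 the rule marks any set in which a single library has a peak, so that rate does not apply to these cases. Each case is a single peak.

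At HBEGF the change in share between EtOH and TAM differed between the proteins by −5.77 peaks per 10000 (S100A9 minus S100A8, exact permutation p = 0.01, adjusted p = 1). It was positive for S100A8 (0.69) and negative for S100A9 (−5.07). The labels shuffled for this p were those of the proteins, within each treatment.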

How the results depend on the processing

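The count of 7 members with more peaks in TAM (65.3% of all genes) was 9 with every deposited peak (71.2%), 10 with 100 kb on either side (82.0%), and 7 by any overlap of a peak with the locus (65.4%). It was 4 at q of at most 1e-10 (5754 of 17987 genes), and 0, as for all genes, with the gene body only, with each peak given to the nearest TSS, and with the 1853 top peaks of each library. With equal numbers of top peaks the differences were below 0 at EGFR (−0.5), ERBB3 (−0.0833), EREG (−0.167), HBEGF (−0.333), and TGFA (−0.167). All were fractions of a peak, with an exact permutation p of at least 0.2. No gain in number was called at equal list lengths, which by themselves take away the rise in total peaks. With each library left out the count ranged from 0 to 7. It was 0 without S100A8 EtOH replicate 1 and without S100A8 EtOH replicate 2, where the smallest possible p is 0.025, and 6 or 7 without any other library (between 8348 and 9549 genes in all). With the replicate number as a block, 0 members were called, since the smallest p of the 32 sign flips is 0.0625. For the gene body and the nearest TSS, EGFR and NRG1 kept p = 0.01 by the exact permutation test. The adjusted p of this test was 0.0823 for both with the gene body and 0.0575 for both with the nearest TSS. TGFA kept p = 0.01 by the exact permutation test with the nearest TSS only. Fewer genes were tested in these settings. Of them, 28.5% with the gene body and 38.4% with the nearest TSS had an unadjusted p under 0.05, against 69.9% in the main test.

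The 48 confident sites became 87 with every deposited peak, 28 at q of at most 1e-10, 3 with equal numbers of top peaks, 18 in gene bodies, 77 within 100 kb, 98 with at least 1 replicate, and 21 with every replicate, and ranged from 37 to 48 with 1 library left out. In share between treatments, share between proteins, promoter calls, and the difference of effects, 0 members were called under each alternative run. Depth is unknown, and most EtOH values rest on 0 to 3 peaks.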
